A study of Schizosaccharomyces pombe with 4 samples.

Results

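The regions described are the 11 peaks of Sep1-TAP in fission yeast, Schizosaccharomyces pombe, out of 210 peaks deposited for 3 tagged factors. All rows of the Sep1 peak list were taken, with no further choice, and 10 are described one by one. A protein-coding gene is called in reach of a peak when the peak's centre lies from 1000 bp upstream to 250 bp downstream of the gene's annotated 5′ end. Chromatin immunoprecipitation and sequencing (ChIP-seq) was done in 1 library per strain, and each library pools 2 biological experiments, so no error between replicates can be given and no test between groups was possible. The Sep1 strain, JLP1670, carries a TAP affinity tag at the C-terminus of Sep1, and its asynchronous culture in YES medium had been given bortezomib at 1 mM for 45 min, as labelled. The control was the untagged strain F108, grown in the same medium and taken through the same IgG bead purification. The labels name no bortezomib or vehicle treatment for that strain, nor for the Fkh2-TAP strain JLP1586 and the Sak1-TAP strain JLP1792, whose 152 and 47 peaks are set beside the Sep1 sites below. The tag and the drug cannot be told apart in any difference between the Sep1 library and the control, nor the factor and the drug in any difference between lists.

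Sep1 is a transcription factor with a forkhead domain, a winged-helix fold that binds DNA at words of the type GTAAACA. In fission yeast it is known for driving genes expressed around mitosis and for the separation of daughter cells after division. Fkh2 is the other forkhead factor of the mitotic cycle in this yeast, and Sak1 belongs to the RFX family of DNA-binding proteins. Bortezomib blocks the proteasome, the protease that removes proteins marked with ubiquitin.

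The forkhead word GTAAACA was found within 150 bp of the centre at 7 of the 11 sites, and every one of these 7 held 2 or more copies. The copy nearest the centre is shown for 6 of them, 5′ to 3′ on the strand that reads GTAAACA, with the word in capitals, so that the bases around it can be compared. Bases are from the RefSeq assembly ASM294v3.
psy1, III:1029367-1029395, minus strand: aacattaaaaaGTAAACActgctacgtca
ecm33, I:1571690-1571718, plus strand: caatgtttactGTAAACAatgagtaattg
exg1, II:3514296-3514324, minus strand: gtcgttataccGTAAACAacgcgctggat
SPCC306.11, III:430318-430346, plus strand: agcttgccactGTAAACAaatgatgtcag
gas1, I:4881160-4881188, minus strand: ttacttacactGTAAACAatgaaagtaga
knh4, II:1970337-1970365, minus strand: ttcgctcagatGTAAACAaagattcattc
The nearest copy was followed by A at 6 of the 7 sites, psy1 being the exception, and so were 12 of the 16 copies whose next base lay in the windows (75.0%). Among all 958 copies in gene promoters, 58.2% were followed by A. This base was looked at after the sequences had been seen, and was not counted at Fkh2 or Sak1 peaks.

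The Sep1 library held 906632 tags, of which 993 (0.110%) lay in its peaks, against 1.93% in the Fkh2 peaks and 0.965% in the Sak1 peaks. The peak caller had first listed 2398 putative Sep1 regions. It kept 11 (0.459%) after removing 2113 that did not stand out from the untagged control and 274 that did not stand out from the surrounding 10000 bp. Each peak was 209 bp wide. Values called normalised tag counts are tags in the peak per 10000000 tags of the library, and folds over the control or over the surroundings are those of the authors' peak caller, which required 4 fold over each. The weakest peak held 33 tags. The lowest fold over the control was 5.90, and the lowest fold over the surroundings was 4.12, at cts2. Intervals in brackets are 95% limits for counting error of tags in these pooled libraries only, and do not cover variation between cultures.

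The first 2 sites held 36.2% of the tags found in Sep1 peaks. In all 11 sites the untagged library had fewer tags than its mean of 8.05 per peak width. Folds therefore rest on 1 to 8 control tags. Their lower limit lay above 4 at 3 of the 10 sites for which it could be computed, psy1 and ecm33 among them. Listing required 4 fold over the same control tags, so the selection favoured sites with low control counts and high folds.

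**Figure D1:**
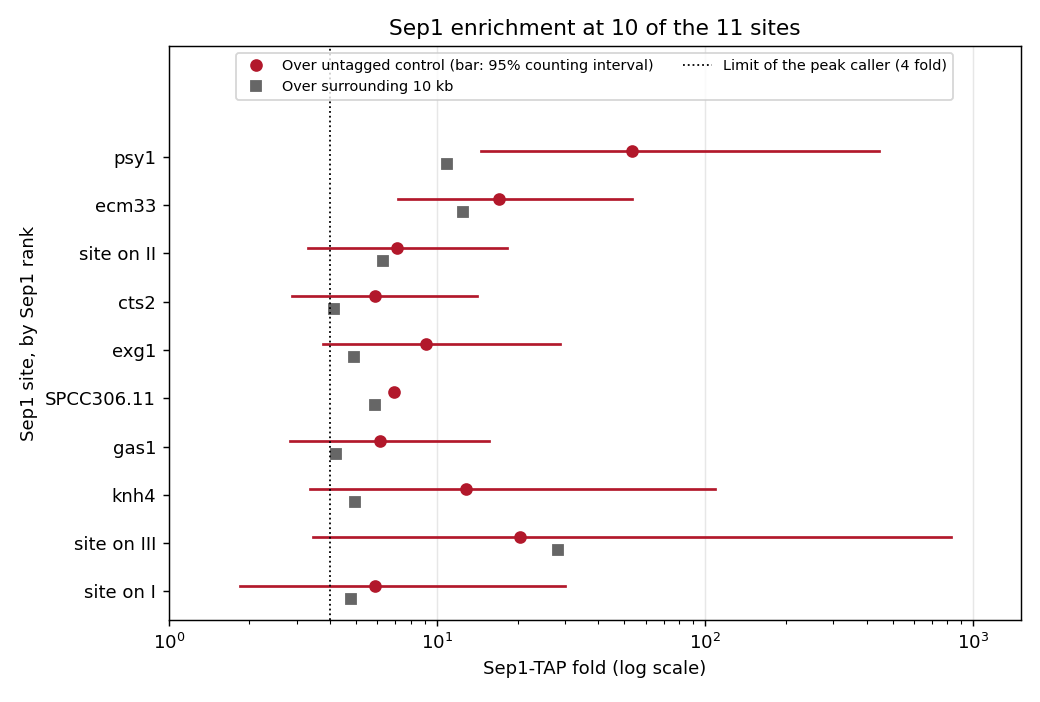
Fold of the Sep1-TAP library over the untagged control (red circles, with 95% limits for counting error) and over the surrounding 10 kb (grey squares) at 10 of the 11 Sep1 sites, on a log axis, ordered by Sep1 tag count. The limits are wide where the control had few tags, and lie wholly above the 4-fold line at psy1 and ecm33; SPCC306.11 has no limits because its control value is not a whole number.

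The highest Sep1 signal lay at psy1, which encodes a plasma membrane SNARE, a protein that drives the fusion of secretory vesicles with the cell surface. The peak (III, 1029249 to 1029457) was centred 134 bp upstream of the psy1 5′ end. It held 200 Sep1 tags, or 107.2 at the size of the control library, against 2 control tags. The fold was 53.6 (14.6 to 446), and 10.95 over the surroundings. Raising the control to its mean gave 13.3 fold, still the highest in the list. The centre fell in the 3′ UTR of a gene read in the same direction, naa40, which overlaps the psy1 start by 13 bp. Forkhead words stood 55 bp to the left and 28 bp to the right of the centre, with neither RFX word in the window.

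Psy1 was the only site of the 8 shared ones where the Sep1 normalised tag count was the highest of the 3 libraries. It was 2206 (1911 to 2534) for Sep1, 1783 (1536 to 2059) for Fkh2 and 1849 (1562 to 2173) for Sak1, with intervals that overlap. Peak widths differ between lists, and per 100 bp the order was 1056 for Sep1, 1151 for Fkh2 and 786.7 for Sak1. While psy1 headed the Sep1 list, it ranked 27 of 152 for Fkh2 and 24 of 47 for Sak1.

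A cell surface protein gene, ecm33, held the second Sep1 site (I, 1571643 to 1571851). Ecm33 is an extracellular protein with leucine-rich repeats that is needed for normal cell wall structure in yeasts. The centre lay 158 bp upstream of the 5′ end, in a stretch of 3755 bp without another protein-coding gene, up to rbx1, and over an annotated long noncoding RNA gene. It had 159 Sep1 tags, or 85.2 when scaled, against 5 control tags, giving 17.0 fold (7.15 to 53.2) and 12.5 fold over the surroundings. The normalised tag count was 1754 (1492 to 2049) for Sep1, 6836 for Fkh2, where the site headed the list, and 4301 for Sak1, where it ranked 2. A further Fkh2 peak, of rank 3 in its list, lay 530 bp from the Sep1 centre and had no Sep1 row.

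The window at ecm33 held 4 forkhead words, the most of any Sep1 site. The first pair forms an inverted repeat, with starts 8 bp apart on opposite strands. The whole Sep1 peak is shown to let this be seen, with forkhead words in capitals, on the plus strand, where a copy on the minus strand reads TGTTTAC.
ecm33, I:1571643-1571851: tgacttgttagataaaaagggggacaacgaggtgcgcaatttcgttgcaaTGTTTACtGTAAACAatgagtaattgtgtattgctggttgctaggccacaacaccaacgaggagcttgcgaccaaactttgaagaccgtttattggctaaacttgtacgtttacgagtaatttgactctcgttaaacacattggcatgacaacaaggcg
The pair stood 51 and 43 bp to the left of the centre, and the other copies 133 and 146 bp to the right, outside the peak.

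Enzymes that build or trim the wall made up the next group, with sites at gas1, exg1 and cts2. Gas1 is a glucanosyltransferase that lengthens the 1,3-glucan chains of the wall. Its peak (I, 4881061 to 4881269) lay 425 bp upstream of the 5′ end, the farthest of the sites assigned by nearest start, in the 2213 bp between gas1 and the divergent glucan synthase gene bgs3. The site had 80 Sep1 tags, or 42.9 when scaled, against 7 control tags (6.13 fold, 2.84 to 15.7). The normalised tag count was 882.4 (699.7 to 1098) for Sep1, 3806 for Fkh2 and 3420.7 for Sak1. The Fkh2 centre lay 65 bp from that of Sep1. The Sak1 centre lay 167 bp from it, the largest distance among the shared sites.

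Like ecm33, the gas1 peak held 2 forkhead words facing away from each other, with starts 14 bp apart, and an RFX word (GTTACCA, on the minus strand) 70 bp to the right of the centre. These words are in capitals in the plus strand of the peak.
gas1, I:4881061-4881269: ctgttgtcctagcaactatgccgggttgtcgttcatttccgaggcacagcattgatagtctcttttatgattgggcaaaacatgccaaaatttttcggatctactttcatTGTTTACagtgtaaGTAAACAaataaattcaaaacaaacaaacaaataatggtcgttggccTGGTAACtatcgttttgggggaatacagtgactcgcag

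Exg1, annotated as a 1,6-glucosidase of the cell wall, had its site (II, 3514204 to 3514412) 296 bp upstream of the 5′ end and 1938 bp from the divergent neighbour cbp1. It held 85 Sep1 tags, or 45.6 when scaled, against 5 control tags, for 9.11 fold (3.76 to 28.8). The normalised tag count was 937.5 (748.9 to 1159) for Sep1, 3222 for Fkh2 and 1069 (853.9 to 1322) for Sak1. The Sep1 and Sak1 intervals overlap, and the Fkh2 value was 3.44 times that of Sep1. A forkhead word lay 2 bp from the centre, the closest of any site, with 2 more copies 88 and 117 bp to the right. An RFX word, GTTACCA on the minus strand, lay 69 bp to the right.

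The chitinase gene cts2 had the peak closest to a start, with its centre 23 bp upstream (I, 3292688 to 3292896), so that the peak reached into the annotated 5′ UTR. The same peak was the only one with a second protein-coding gene in reach, that of gde1, a glycerophosphodiester phosphodiesterase gene, 755 bp away on the other side of the shared 777 bp intergenic region. The site had 88 Sep1 tags, or 47.2 when scaled, against 8 control tags, and its folds were low (5.90, 2.87 to 14.1, and 4.12 over the surroundings). Normalised tag counts were 970.6 (778.5 to 1196) for Sep1, 4166 for Fkh2 and 3081 for Sak1. It was the only one of the 8 sites near a gene start without GTAAACA, but it held the related word GTAAATA at 2 places.

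The knh4 and SPCC306.11 promoters completed the sites with a gene start in reach. SPCC306.11 encodes a protein annotated as uncharacterised. The site (III, 430220 to 430428) was centred 91 bp upstream of its 5′ end and 4052 bp of DNA without another protein-coding gene lay upstream. It held 84 Sep1 tags, or 45.0 when scaled, against 6.5 control tags, for 6.93 fold. The normalised tag count was 926.5 (739.0 to 1147) for Sep1, 4056 for Fkh2 and 1031 (820.2 to 1280) for Sak1, so that, as at exg1, the Sep1 and Sak1 values overlapped in counting error while Fkh2 stood higher.

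The knh4 site (II, 1970301 to 1970509) was the weakest of the shared ones for Sep1 and among the strongest for Fkh2. It lay 202 bp upstream of the 5′ end of knh4 and 1015 bp past the end of the retrotransposon gene Tf2-10. There were 48 Sep1 tags, or 25.7 when scaled, against 2 control tags (12.9 fold, 3.37 to 109). With the control raised to its mean, the fold was 3.19, below the 4 fold that the caller required. The normalised tag count was 529.4 (390.4 to 702.0) for Sep1, 4214 for Fkh2 (rank 4) and 2955 for Sak1 (rank 9). The peak held forkhead words on the minus strand with starts 22 bp apart, and a copy of GTAAATA followed at the same distance. The 2 copies of GTAAACA are in capitals in the plus strand.
knh4, II:1970301-1970509: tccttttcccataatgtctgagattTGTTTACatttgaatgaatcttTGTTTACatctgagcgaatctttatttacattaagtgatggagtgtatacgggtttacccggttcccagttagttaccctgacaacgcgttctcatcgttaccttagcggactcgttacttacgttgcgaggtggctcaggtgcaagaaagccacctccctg

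**Figure D2:**
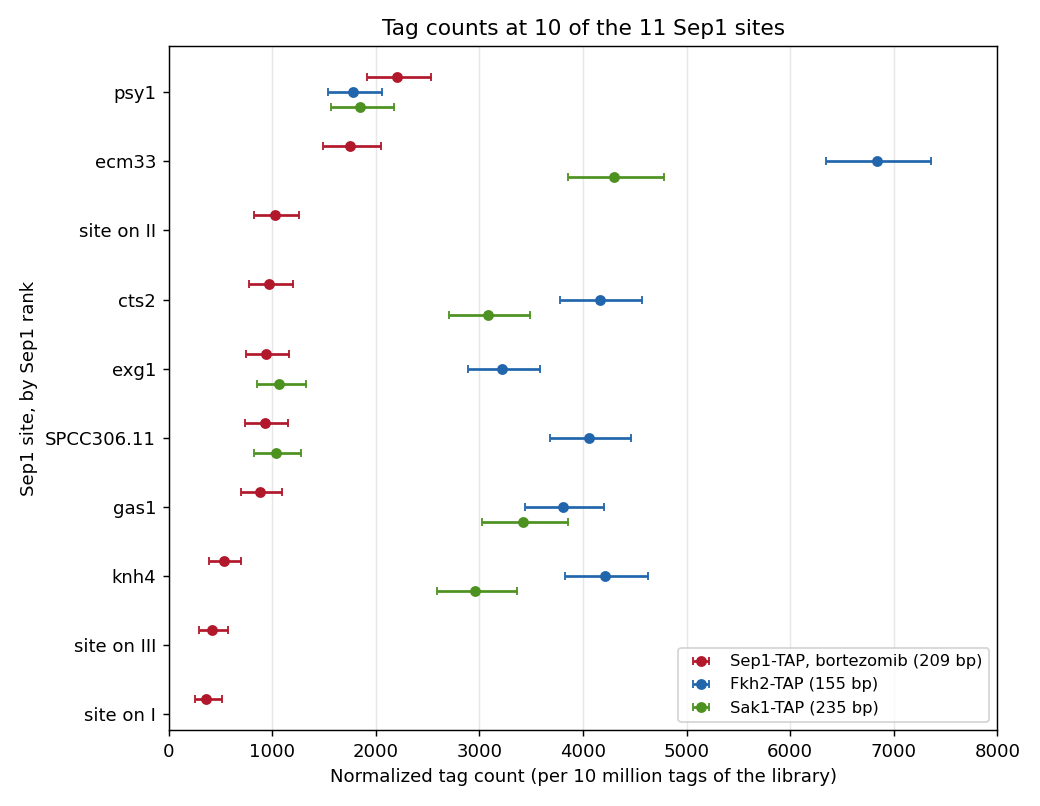
Normalised tag counts (tags in the peak per 10000000 tags of each library) at 10 of the 11 Sep1 sites, for Sep1-TAP under bortezomib (red) and for the overlapping rows of Fkh2-TAP (blue) and Sak1-TAP (green); bars are 95% limits for counting error. Of the sites plotted, Sep1 is highest at psy1 only, Fkh2 is highest at 6, and 3 sites have a Sep1 value alone.

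The remaining 3 sites had no start of a protein-coding gene in reach, no forkhead word of either form and no RFX word in the window, and no row in the Fkh2 or Sak1 list. With noncoding genes counted too, 10 of the 11 sites had a gene start in reach, with no genome share counted beside it. The site on II was then 207 bp past the start of SPNCRNA.6656 and the site on III was 122 bp upstream of SPNCRNA.7206, which leaves the site on I with none. The strongest, of rank 3 in the list, lay near the right end of chromosome II (4535465 to 4535673), with its centre 4.24 kb from the end of the assembly and 2670 bp beyond tlh2, a telomere-linked helicase gene. It had 93 Sep1 tags, or 49.8 when scaled, against 7 control tags, for 7.12 fold (3.32 to 18.2), and a normalised tag count of 1026 (827.9 to 1257), above that of cts2. The nearest Fkh2 peak, of rank 138, lay 1085 bp away. The peak is shown as the strongest Sep1 site without these words.
Right end of II, II:4535465-4535673, plus strand: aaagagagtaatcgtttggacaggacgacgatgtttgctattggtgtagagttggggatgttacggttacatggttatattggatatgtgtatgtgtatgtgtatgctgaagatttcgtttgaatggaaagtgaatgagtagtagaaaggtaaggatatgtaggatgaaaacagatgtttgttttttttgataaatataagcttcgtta

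On chromosome III (1097675 to 1097883), the second of these sites lay 209 bp from a glutamate tRNA gene, within 78.2 kb that hold no protein-coding gene between chk1 and ppc1. It was the only one of the 11 with a tRNA gene within 500 bp. It had 38 Sep1 tags, or 20.4 when scaled, against 1 control tag, for 20.4 fold (3.44 to 825). Its 28.4 fold over the surroundings was the highest in the list, and with the control raised to its mean the fold over the control was 2.53. The caller expected 14.946 tags per peak genome-wide for Sep1, so 28.4 fold from 38 tags means that the surroundings held few tags. The last site (I, 58646 to 58854) lay in the pseudogene SPAC977.13C, between SPAC977.12 and SPAC977.14C and 58.7 kb from the left end of chromosome I. It had 33 Sep1 tags, or 17.7 when scaled, against 3 control tags, for 5.90 fold (1.85 to 30.0), and 2.20 fold with the raised control. Normalised tag counts were 419.1 (296.6 to 575.3) and 364.0 (250.6 to 511.2) at these 2 sites, the lowest in the list.

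Sep1 peaks near protein-coding genes had their centres just upstream of annotated starts. The 8 sites had their centres 23 to 425 bp upstream of the nearest annotated 5′ end, with a median of 146 bp. All 11 centres lay outside coding sequence, whose share of the genome was not counted. Of these, 9 (81.8%, 95% interval 48.2 to 97.7) lay between protein-coding genes, a class that covers 23.3% of the nuclear genome, and the other 2, psy1 among them, lay in 3′ UTRs. Long noncoding RNA genes, which cover 47.7% of the genome in this annotation, lay over 7 centres (63.6%, 30.8 to 89.1). A start of a protein-coding gene was in reach of 8 sites (72.7%, 39.0 to 94.0), where 41.6% of the nuclear genome is in reach.

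Many of the genes next to Sep1 sites had long upstream regions. For the 9 genes in reach, the distance to the next upstream protein-coding gene had a median of 1216 bp and exceeded 1000 bp at 5 (ecm33, exg1, SPCC306.11, gas1 and knh4). Over all nuclear genes the median was 461 bp, and 24.9% exceeded 1000 bp. A longer upstream region offers more room for a peak between genes, so all genes are not a matched background. Psy1, by contrast, had no gap at all to the gene before it.

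**Figure D3:**
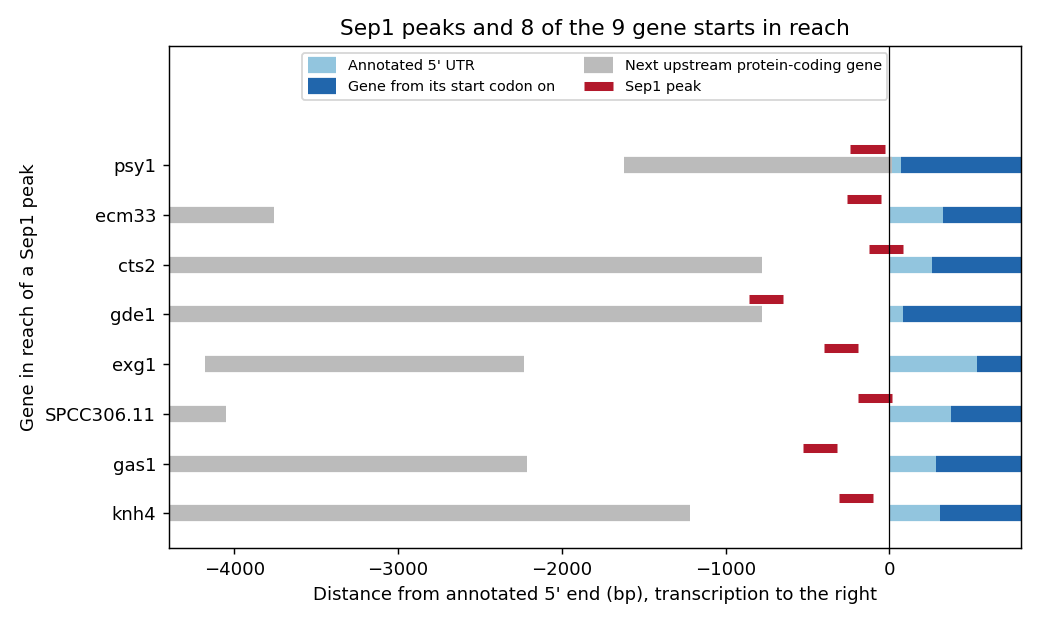
Sep1 peaks (red) along 8 of the 9 genes in reach, as distance in bp from each annotated 5′ end with transcription to the right; light blue is the 5′ UTR, dark blue the gene from its start codon on, and grey the next protein-coding gene upstream. The peak centres lie upstream of the starts, farthest at gde1, the peaks at cts2 and SPCC306.11 extend past the start, and the psy1 peak falls inside the preceding gene.

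GTAAACA on either strand lay in the 300 bp around the centre at 7 of 11 sites (63.6%, 95% interval 30.8 to 89.1), and in 16.5% of all 5112 promoters of the same length (250 bp before to 50 bp after the 5′ end). The word was also common around the peaks of the other factors, at 73.7% of Fkh2 peaks (65.9 to 80.5) and 71.7% of Sak1 nuclear peaks (56.5 to 84.0). Both intervals lie inside that of Sep1. Windows with 2 or more copies made up 7 of 11 at Sep1 sites, against 2.03% of promoters. Copies at most 60 bp apart were found at 5 sites, among them ecm33, gas1, knh4 and exg1, and in 1.06% of promoters. This limit was set after the positions had been seen. Neither share was counted for Fkh2 or Sak1 peaks, so neither can be called particular to Sep1 sites. In all, the 7 windows held 17 copies, 13 of them inside the peaks. The nearest copy was 2 to 54 bp from the centre, with a median of 9 bp. At 5 of the 7 sites the closest pair lay on opposite strands, and at exg1 and knh4 on the same strand.

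An RFX word, GTTGCCA or GTTACCA on either strand, lay at 3 sites, exg1 and gas1 among them (27.3%, 6.02 to 61.0), and in 5.03% of promoters, 14.5% of Fkh2 peaks and 32.6% of Sak1 nuclear peaks. At exg1 and gas1 it stood 69 and 70 bp to the right of the centre. Of all promoters, 0.998% held both a forkhead and an RFX word, as these 3 sites did. Both words also lay at 11.8% of Fkh2 peaks (7.17 to 18.1) and 23.9% of Sak1 nuclear peaks (12.6 to 38.8). These shares lie inside the Sep1 interval, so the pairing is not particular to Sep1 sites. The word GTTGCTA, taken up because it had been found in these same peak lists, lay at 6 sites, among them psy1, ecm33, cts2, exg1 and gas1, and in 5.22% of promoters, 13.8% of Fkh2 peaks and 34.8% of Sak1 nuclear peaks. The MCB word ACGCGT, known as the recognition word of the G1/S factor MBF, was at knh4 alone (9.09% of the Sep1 sites). It lay in 3.25% of promoters, 11.2% of Fkh2 peaks and 8.7% of Sak1 nuclear peaks. A match is only a run of letters and no evidence of binding by a given factor.

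**Figure D4:**
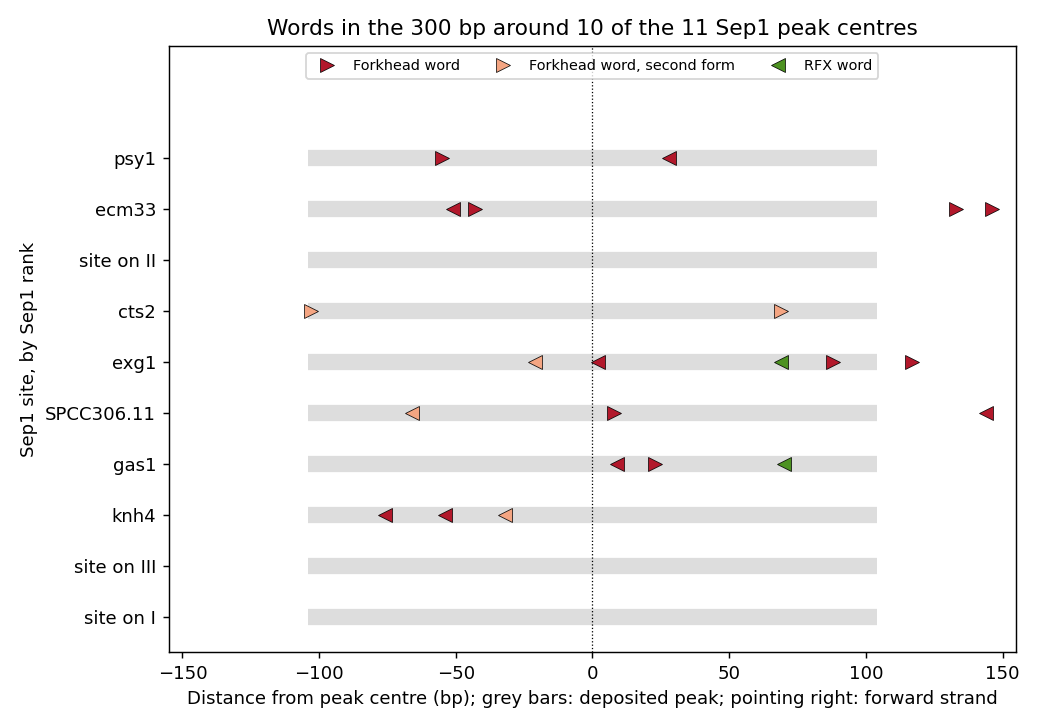
Positions of the forkhead word (red), its second form (orange) and the RFX words (green) within 150 bp of the centre of 10 of the 11 Sep1 peaks, as distance in bp; arrowheads show the strand and grey bars the deposited peaks. The 6 plotted sites with the forkhead word hold 2 to 4 copies each, and the 3 sites without a protein-coding gene start in reach hold none of these words.

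All 8 sites near gene starts were also peaks of Fkh2 and of Sak1. They were 72.7% of the Sep1 list (39.0 to 94.0), 5.26% of the Fkh2 list and 17.0% of the Sak1 list. The 3 lists share the untagged control, so the overlap is given as a count only. At these sites the Fkh2 tag count was 0.808 to 7.96 times that of Sep1 (median 4.10), and the Sak1 count 0.838 to 5.58 times (median 2.76). Each was above Sep1 at 7 of 8 sites, the exception being psy1. Per bp of peak, Fkh2 was above Sep1 at all 8, and Sak1 at 6. The Fkh2 rows ranked between 1 and 27 of 152, and the Sak1 rows between 2 and 41 of 47. Fkh2 centres lay 1 to 67 bp from those of Sep1, and Sak1 centres 15 to 167 bp.

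Over the whole genome, 9 of 5113 protein-coding genes (0.176%) had their 5′ end in reach of a Sep1 peak. Of a list of 23 wall genes (glucan and chitin enzymes and wall proteins), 5 were in reach, namely cts2, ecm33, exg1, gas1 and knh4, and 9 each were in reach of Fkh2 and of Sak1 peaks, which have 2.84% and 1.06% of all genes in reach. The list was written with earlier results of these data known, so its count is no independent evidence. The glucan synthase gene ags1 and the glucanosyltransferase gene gas5 had peaks of both other factors and none of Sep1.

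Of 19 genes of the M-phase cluster that forkhead factors are known to control, 1 was in reach of a Sep1 peak, against 12 for Fkh2 and 11 for Sak1, whose lists reach 145 and 54 genes in all, where the Sep1 list reaches 9. Among those with Fkh2 and Sak1 peaks but no Sep1 peak were the polo kinase gene plo1, the ring gene cdc15, cdc25 and spo12. Absence from the Sep1 list means only that no peak passed the caller's limits. Sep1 tags at these genes, and at ags1 and gas5, are not known. Psy1 was the 1 gene in reach of a Sep1 peak among 12 SNARE and vesicle fusion genes. Fkh2 and Sak1 peaks each reached 2 of these, psy1 and bet1. No Sep1 sites lay at the 29 proteasome subunit genes, the 19 genes of heat shock and drug efflux or the 18 highly transcribed genes. The genes sep1, fkh2 and sak1 were themselves out of reach. Fkh2 peaks reached 2 of the heat shock and efflux genes and 4 of the highly transcribed genes, and Sak1 peaks reached neither group. With 0.176% of all genes in reach of a Sep1 peak, a Sep1 count of 0 in lists of this size says little.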

How the data were processed

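Members and lists were chosen with earlier results of these data known. Bowtie2 2.1.0, SAMtools 0.1.18 and HOMER are named in the submitters' processing notes, with no role, HOMER version or build. Peak calling used HOMER findPeaks for each of the tagged libraries against the untagged one, per the file headers, at a false discovery rate of 0.001, 4 fold and a Poisson p-value limit of 1e-04 over the control and over 10000 bp. Tag counts as deposited are a signal that the authors brought to 10000000 tags per library. The deposited control and scaled tags, the fold ratios, and the p-value, focus fraction and score columns are the peak caller's own. The last 3 were not used, except for the score of the weakest Sep1 peak. Deposited peak lists were made from 2 pooled experiments, per the labels.

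Whole tags were recovered for all 11 Sep1 peaks (within 0.05 tags, summing to the 993 in the header). About 486008 control tags are implied by the scaling. Intervals are exact Poisson for tags, exact binomial (Clopper-Pearson) for shares, and conditional binomial for folds. A gene was assigned when the peak centre lay from 1000 bp upstream to 250 bp downstream of its annotated 5′ end. Overlap needed 1 bp. Words were searched on both strands in 300 bp. The files name no build; coordinates were read on ASM294v3, where the forkhead word lay near 112 of 152 Fkh2 centres, against at most 22 after shifts of 500 to 5000 bp, and near at least 66.7% in every part when each chromosome was split into 3. Word search, gene reach and overlap were tested on simulated data. Named genes are all those in reach, the neighbours of peaks with none, listed genes in reach, and those at the 3 highest Fkh2 and Sak1 peaks without a Sep1 overlap. Python 3.11.15 and scipy 1.17.1 were used. 1 Sep1 site and its gene are included in the counts but not reported here by name or value.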

Additional observations from a re-analysis of the deposited data

How the results depend on the processing

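Of 29 alternatives to 10 counts, 23 stayed within 1.5 times the main count. Holding the Sep1 list to peaks of at least 8 fold over the control left 6 peaks (among them psy1, ecm33, exg1, knh4 and the site on chromosome III), of which 5 had a gene start in reach, 5 overlapped both other lists and 4 lay between protein-coding genes. This setting shortens the list by construction. With centres required to lie at most 50 bp apart, 4 sites matched Sak1 and 4 matched both lists, since Sak1 centres lay farther from those of Sep1. Counting noncoding genes, 10 sites had a gene start in reach, against 8 with protein-coding genes alone. The genome share in reach was counted for protein-coding genes only (41.6%), so the count of 10 has no background. Raising the control to its mean left 8 peaks of 4 fold or more, without knh4, the site on III and the site on I. The forkhead word was at 7 sites in 150 bp windows and within the peaks, and an RFX word at 2 sites in 150 bp windows. No paired analysis was possible because each group has 1 pooled library.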

Other observations

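The strongest peaks of the other factors did not all appear in the Sep1 list. At the promoter shared by mde6 and pun1 (I, 3696435 to 3696589 for Fkh2) the normalised tag count was 6668 for Fkh2 and 4402 for Sak1, with no Sep1 row. The control had 22 tags in the Sak1 row there, for which 4 fold corresponds to a Sep1 tag count of 1811. In the Fkh2 row it had 8.5 tags, for which 4 fold corresponds to 699.6. The Sak1 row is wider and the Fkh2 row narrower than a Sep1 peak, so neither value is the exact limit for a Sep1 peak. At rep2 (II, 1717356 to 1717590), whose product works with the G1/S factor MBF, the Sak1 count was 4024 over 1 control tag, and at gto1 (I, 5475211 to 5475365) the Fkh2 count was 3806 over a listed control of 0.5. The caller also set a threshold of 34 tags for Sep1, which is 375 as a normalised tag count, against 364.0 in the weakest listed peak, whose tags recovered from the normalised count were 33. The caller's own score for that peak was 34. At rep2 and gto1, 4 fold over the control corresponds to 82.3 and 41.15, below that threshold. A peak further needed 4 fold over the surrounding 10000 bp, so a missing row does not show that the Sep1 count there lay under 375. At wdr8 (II, 1468335 to 1468569) the Sak1 count was 3999.3 over 13 control tags, for which 4 fold corresponds to a Sep1 tag count of 1070.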
